A study of Homo sapiens with 7 samples.

Results

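Ion channel genes were followed in the human neuroblastoma line NGP, whose MYCN gene is amplified, and in ARID1A mutant lines made from it. ARID1A belongs to the BAF (SWI/SNF) complex, which moves nucleosomes at enhancers and promoters. The genes were chosen by symbol: the sodium channel genes (SCN with A or B), the calcium channel genes (CACNA1, CACNA2, CACNB and CACNG) and the potassium channel genes (KCN followed by letters and a number), with antisense entries left out. Of 28517 named entries, 134 matched, and the 62 with a mean RPKM (reads per kilobase of transcript, scaled to the depth of the library) of at least 0.5 over the 7 libraries are described. They comprise 7 sodium, 13 calcium and 42 potassium channel genes. Tests took entries with the same mean over the 6 control and ARID1A-/- libraries, which gives 62 channel genes too, with KCNH6 in place of KCNH5. The choice used no difference between groups. The values just inside it were a mean of 0.506 RPKM for KCNH5 and 0.525 for CACNA1C, and just outside it 0.481 for KCNK12, 0.472 for KCNH6 and 0.432 for KCNJ2. Not all of them are voltage-gated: the 4 inward rectifiers (KCNJ), the 5 tandem-pore leak channels (KCNK) and the calcium-activated KCNN channels are not opened by depolarisation.

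Voltage-gated channels open a selective pore when the membrane depolarises. Sodium channels carry the upstroke of the action potential, calcium channels couple it to secretion and gene expression, and potassium channels end it and set the resting potential. Each pore subunit works with accessory subunits that set its traffic to the membrane and its gating. Sympathetic neurons and adrenal chromaffin cells, the lineage from which neuroblastoma arises, are excitable cells that use all of these families.

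The 7 libraries were 2 of ARID1A-/- line 1, 2 of ARID1A-/- line 2, 1 of an ARID1A+/- line and 2 of control NGP cells, and all were grown in 0.5 µg/ml puromycin. Groups with 2 libraries have one from the SMARTer Universal Low Input kit and a repeat from the KAPA mRNA HyperPrep kit; the ARID1A+/- line was prepared with KAPA alone. Pairs of values below are those of the KAPA and the SMARTer library of a group. Separate cultures are not stated, and p-values then reflect only the spread of these libraries, which may be technical. Each mutant line is a single derived line and there is a single control, so that genotype and line cannot be told apart, nor can fewer cells that express a gene and less RNA per cell. Total counts were 24445301 to 43644361 per library, of which the 134 channel genes took 0.145% to 0.192%. ARID1A itself had 17.2 and 16.7 RPKM in line 1, 13.8 and 14.2 in line 2, 19.9 in the ARID1A+/- library, against 22.0 and 22.3 in control. Its log2 change over both null lines was -0.54 ± 0.09 (edgeR adjusted p = 0.0122), so counts per gene do not show a loss of ARID1A, and the lines are called null after their labels.

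Markers chosen here for adrenergic neuroblastoma cells did not all go the same way. PHOX2A ranged from 131 to 437 RPKM and HAND2 from 276 to 349 over the 7 libraries, whereas TH, the first enzyme of noradrenaline synthesis, was at most 0.456. Of the 10 tested adrenergic markers, 2 rose and 2 fell over both lines, beside 4.64% and 9.57% of all tested genes. The 6 fibroblast markers summed to 201 and 186 RPKM in line 1, 30.1 and 41.4 in line 2, 53.1 in the ARID1A+/- library, against 69.5 and 68.2 in control. Most of that sum was COL1A1, while COL1A2, which encodes its partner chain, was at most 0.0336 in any library. Of the 5 tested fibroblast markers, 3 rose and 1 fell over both lines, beside the same shares of all tested genes. Schwann cell, endothelial, erythroid and muscle markers all fell below the filter on low values, PTPRC was at or near 0 and CD3E was at 0. The 4 epithelial markers summed to at most 1.86 RPKM, and 0 of the 2 tested immune markers and 0 of the 1 tested epithelial marker passed the test over both lines (edgeR, likewise 0 at an unadjusted p under 0.05). The part of these differences in the channel results was not tested.

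Start regions are shown for the sodium channel gene that rose in both null lines (SCN9A), for the tested gene with the largest fall over both lines (KCNN1, with both annotated starts) and for the gene nearly silent in the ARID1A+/- library (KCNJ8). Each is the 250 bases upstream of an annotated start, 5′ to 3′ on the strand of the gene, from RefSeq (GRCh38.p14), with CG dinucleotides, the sites of DNA methylation, in capitals. The positions are chr2:166375945-166376194 on the minus strand for SCN9A, chr19:17952007-17952256 on the plus strand and chr19:17966857-17967106 on the plus strand for KCNN1, and chr12:21774707-21774956 on the minus strand for KCNJ8.
SCN9A: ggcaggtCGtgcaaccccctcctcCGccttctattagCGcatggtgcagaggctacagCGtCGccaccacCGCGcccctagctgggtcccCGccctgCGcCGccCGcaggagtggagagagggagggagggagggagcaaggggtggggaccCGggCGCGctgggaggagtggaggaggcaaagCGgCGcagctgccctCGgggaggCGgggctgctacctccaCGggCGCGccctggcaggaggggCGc
KCNN1, upstream start: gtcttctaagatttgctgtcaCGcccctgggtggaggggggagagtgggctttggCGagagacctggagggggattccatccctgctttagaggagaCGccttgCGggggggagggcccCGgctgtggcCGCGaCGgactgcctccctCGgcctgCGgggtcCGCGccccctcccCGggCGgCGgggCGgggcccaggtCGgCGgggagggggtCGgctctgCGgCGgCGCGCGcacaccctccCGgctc
KCNN1, downstream start: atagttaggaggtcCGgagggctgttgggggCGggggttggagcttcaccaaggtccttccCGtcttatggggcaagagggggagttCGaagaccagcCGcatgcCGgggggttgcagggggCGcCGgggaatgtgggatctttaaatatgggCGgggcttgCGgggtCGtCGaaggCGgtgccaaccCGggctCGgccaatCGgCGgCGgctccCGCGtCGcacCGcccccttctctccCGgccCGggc
KCNJ8: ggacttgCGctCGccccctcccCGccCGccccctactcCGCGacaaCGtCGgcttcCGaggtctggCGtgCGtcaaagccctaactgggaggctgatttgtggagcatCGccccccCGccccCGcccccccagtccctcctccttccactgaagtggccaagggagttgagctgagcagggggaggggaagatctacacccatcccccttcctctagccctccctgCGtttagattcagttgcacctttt
SCN9A held 22 CG dinucleotides in this window, KCNN1 held 25 and 24 and KCNJ8 held 15, with a median of 16 over 73 start regions of 40 described channel genes and of 11 over all 35116 start regions in the table. The GC content was 74.0% for SCN9A, 74.8% and 68.8% for KCNN1 and 64.8% for KCNJ8. The median was 64.8% over the 73 channel start regions and 58.0% over all start regions. The GC box GGGCGG, searched on both strands, occurred in all of the windows shown, in 52.1% of the channel start regions and in 42.6% of all. The letters CACGTG, the E-box that MYC proteins can bind, were in none of the windows shown and in 6.34% of all start regions. TGANTCA, the AP-1 motif, was in none of the windows shown and in 6.57% of all. Which start was used in these cells is not given by counts per gene.

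By level per length, KCNG1 led the channel genes, with 38.9 and 37.99 RPKM in line 1, 45.1 and 39.5 in line 2, 80.8 in the ARID1A+/- library and 25.7 and 48.4 in control. KCNG1 encodes a subunit that is electrically silent alone and alters the channels of KCNB subunits. Other abundant genes were CACNG4 (mean over 7 libraries 21.1 RPKM) and KCNH2 (18.5). CACNG4 is named as a calcium channel subunit but its protein is best known as an auxiliary subunit of AMPA receptors, and KCNH2 encodes the hERG channel. KCNMB4, the neuronal accessory subunit of the large-conductance calcium-activated channel, followed at 12.4, and CACNA2D1, the target of gabapentin, at 11.3. Among the sodium channel genes, high levels were those of SCN3A (5.44), known for its embryonic expression, and SCN9A (4.51).

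Over both null lines, 4 channel genes rose and 14 fell of the 62 tested (edgeR quasi-likelihood test, Benjamini-Hochberg adjusted p under 0.05), which compares with 4.64% of all 14710 tested genes higher and 9.57% lower. Their median log2 change was -0.17, beside 0.02 over all tested genes. Line 1 had 6 higher and 15 lower (4.75% and 8.27% of all tested genes), and line 2 had 7 higher and 10 lower (5.47% and 8.52%). Both lines share the control libraries, so these counts are not independent. Taken line by line, SCN9A passed the test upward in both, and CACNA2D2, KCNB2, KCNK9, KCNN1, KCNQ3 and KCNS3 passed it downward in both. SCN1A passed it in opposite directions, 13 genes in line 1 alone and 9 in line 2 alone. Of the 18 genes called over both lines, 15 differed from the control in 1 direction in 4 of 4 within-kit pairs. These pairs use the libraries that gave the call, so their agreement is no separate support for it. The calls depend on the control libraries: fewer remained without the SMARTer or without the KAPA control library, among all tested genes too. CACNA1H, CACNA2D2 and KCNQ3 kept the call over both lines whichever library was left out. Over both lines, a fit without the kit term called 7 channel genes. It called 592 of all tested genes, against 2090 with the kit term.

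**Figure D1:**
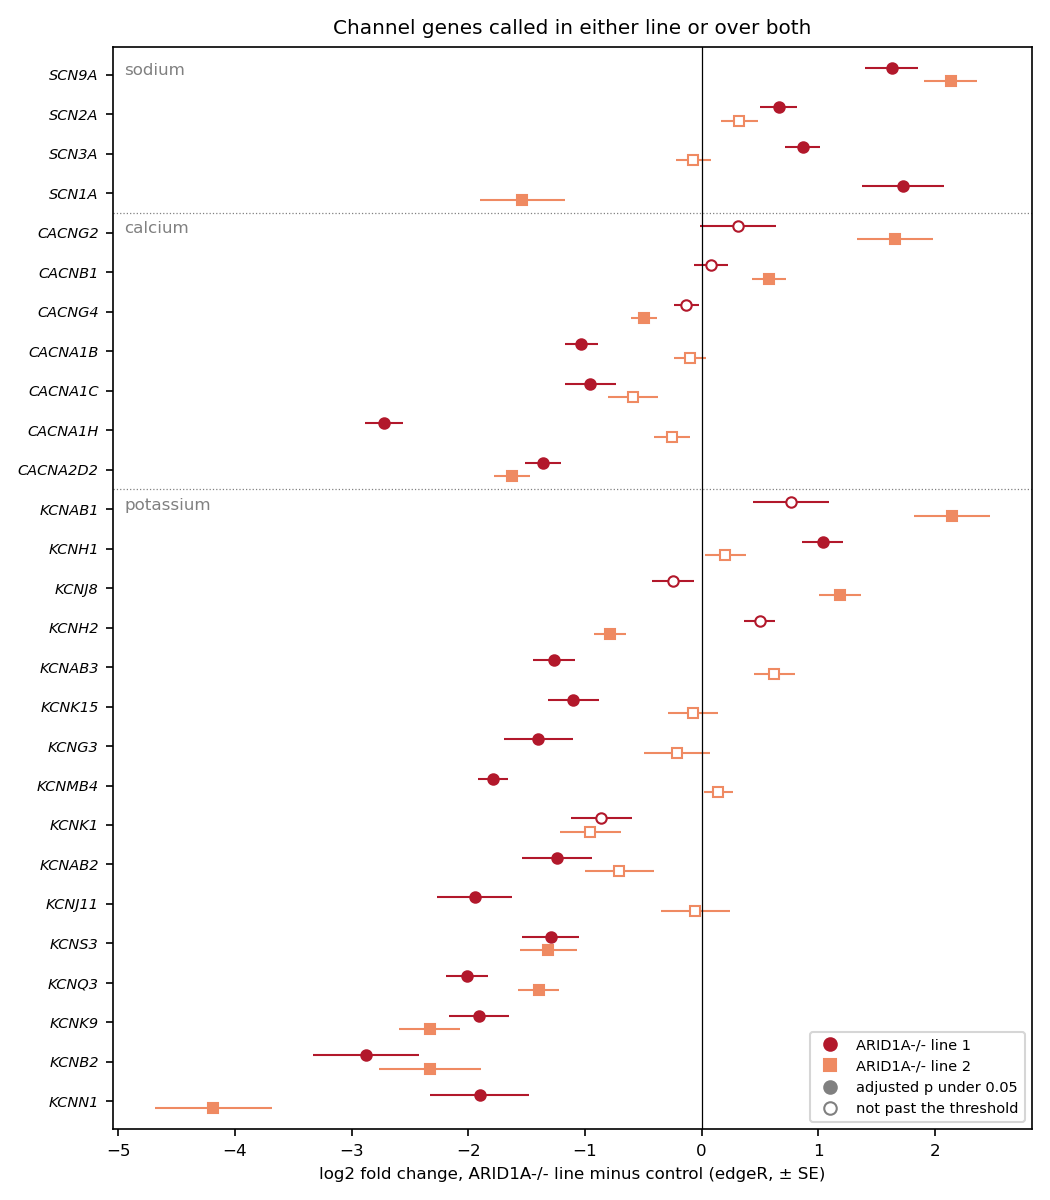
Log2 fold change of each ARID1A-/- line against control (x axis, edgeR, bars ± SE) for 27 of the channel genes called in either line or over both, grouped by ion; filled symbols passed the threshold. SCN9A lies to the right of 0 in both lines, SCN1A on opposite sides, and KCNN1, KCNB2, KCNK9, KCNQ3, KCNS3 and CACNA2D2 to the left in both.

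Of the 7 tested sodium channel genes, 5 passed the test upward and 0 downward in line 1 (4.75% and 8.27% of all tested genes). In line 2, 1 passed upward and 1 downward (5.47% and 8.52%). Each of the 5 line 1 calls was lost without the KAPA control library, and all but that of SCN1A also without the SMARTer control library. Summed over the 14 sodium channel genes, the level was 35.4 and 21.6 RPKM in line 1, 26.4 and 21.3 in line 2, 20.1 in the ARID1A+/- library, against 17.01 and 15.5 in control.

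SCN9A, the sodium channel gene of nociceptors and sympathetic neurons, had 7.27 and 3.53 RPKM in line 1, 7.46 and 7.42 in line 2, 2.53 in the ARID1A+/- library, against 1.92 and 1.45 in control. All 4 null libraries were above both control libraries and the ARID1A+/- library lay in between. The log2 difference was +1.63 ± 0.23 in line 1 (edgeR adjusted p = 0.0068) and +2.13 ± 0.23 in line 2 (edgeR adjusted p = 0.0025), and +1.88 ± 0.21 over both (edgeR adjusted p = 0.00238). The call in line 1 was lost without either control library, and the call over both lines without the SMARTer control library.

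SCN1A, its neighbour on chromosome 2 and a sodium channel gene prominent in inhibitory neurons, had 6.40 and 2.04 RPKM in line 1, 0.568 and 0.280 in line 2, 1.34 in the ARID1A+/- library, against 1.11 and 1.05 in control. Line 1 was above control and line 2 below it in both kits, with no overlap between the groups. Against control the log2 difference was +1.72 ± 0.35 in line 1 (edgeR adjusted p = 0.0251) and -1.54 ± 0.37 in line 2 (edgeR adjusted p = 0.0385), and line 1 minus line 2 was +3.26 ± 0.37 (edgeR adjusted p = 0.00383). The difference between the lines was called whichever library was left out, whereas the call against control was lost in line 1 without the KAPA control library, and in line 2 without the SMARTer control library or either line 2 library.

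SCN3A and SCN2A, which encode pore subunits, also rose in line 1. SCN3A had 9.81 and 4.77 RPKM in line 1, 4.80 and 2.84 in line 2, 8.19 in the ARID1A+/- library, against 4.59 and 3.09 in control, with a log2 difference of +0.87 ± 0.15 in line 1 (edgeR adjusted p = 0.0136). SCN2A, the main sodium channel of excitatory axons, had 2.74 and 1.67 RPKM in line 1, 2.25 and 1.35 in line 2, 2.13 in the ARID1A+/- library, against 1.71 and 1.08 in control, with a line 1 difference of +0.66 ± 0.16 (edgeR adjusted p = 0.0392). In line 2 SCN3A was at -0.07 ± 0.15 and SCN2A at +0.32 ± 0.16, and neither passed. Both line 1 calls were lost without the SMARTer control library and without the KAPA control library, and that of SCN2A also without the SMARTer library of line 1 or either library of line 2. SCN8A, the sodium channel of nodes of Ranvier, was at +0.33 ± 0.14 over both lines and did not pass (edgeR adjusted p = 0.165). The accessory subunit gene SCN3B had 2.09 and 2.78 RPKM in line 1, 3.24 and 3.44 in line 2, 0.374 in the ARID1A+/- library, against 2.55 and 3.56 in control. Only the ARID1A+/- library stood apart for SCN3B, and over both null lines it was at -0.10 ± 0.15 (edgeR adjusted p = 0.706).

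**Figure D2:**
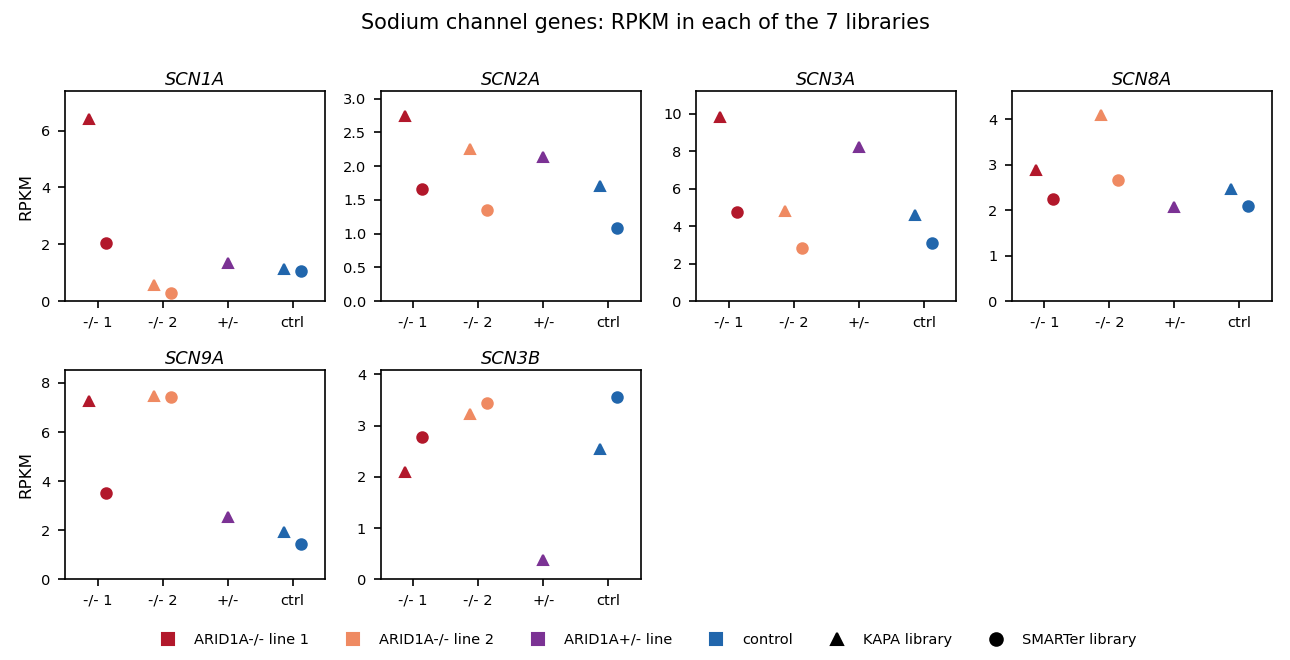
RPKM (y axis, from 0) of 6 described sodium channel genes in each library; colours are the groups, triangles KAPA and circles SMARTer libraries. For SCN9A all 4 ARID1A-/- libraries lie between 3.53 and 7.46 RPKM, above the control libraries at 1.92 and 1.45; for SCN1A line 1 lies above and line 2 below the control.

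Calcium channel genes fell where they changed over both lines: 0 of 13 rose and 4 fell (CACNA2D2, CACNA1H, CACNA1C and CACNA1B). Of all tested genes 4.64% rose and 9.57% fell. All 3 described calcium channel pore subunit genes were among these 4. CACNA1H, a T-type channel gene that opens near the resting potential, had 0.877 and 1.58 RPKM in line 1, 5.59 and 8.23 in line 2, 5.79 in the ARID1A+/- library, against 6.87 and 9.01 in control. Line 1 was far below all other libraries, and line 2 overlapped the range of the control. It fell by 2.72 ± 0.17 on the log2 scale in line 1 (edgeR adjusted p = 0.000444), while line 2 was at -0.25 ± 0.15 (edgeR adjusted p = 0.32), and the lines differed by -2.47 ± 0.16 (edgeR adjusted p = 0.000711).

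CACNA1B, the N-type channel gene of presynaptic terminals, had 3.33 and 5.27 RPKM in line 1, 7.18 and 9.37 in line 2, 7.84 in the ARID1A+/- library, against 6.69 and 11.02 in control. In each kit line 1 was the lowest, with a log2 difference of -1.03 ± 0.14 in line 1 (edgeR adjusted p = 0.00652) and -0.10 ± 0.14 in line 2. CACNA1C, the L-type channel gene of heart, muscle and neurons, was near the filter with 0.267 and 0.427 RPKM in line 1, 0.321 and 0.625 in line 2, 0.611 in the ARID1A+/- library, against 0.419 and 1.01 in control. The libraries of the groups overlapped across kits, but each null library was below the control library of its kit, and the change was -0.77 ± 0.18 over both lines (edgeR adjusted p = 0.0368). Both calls over both lines were lost without either control library or the SMARTer library of line 2, and that of CACNA1C also without the KAPA library of line 2. CACNA1B lost its line 1 call without the SMARTer control library.

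CACNA2D2, an extracellular accessory subunit that raises the number of channels at the membrane, had 1.74 and 3.28 RPKM in line 1, 1.56 and 2.70 in line 2, 7.43 in the ARID1A+/- library, against 4.72 and 8.06 in control. Each null library was below both control libraries. The log2 change was -1.36 ± 0.15 in line 1 (edgeR adjusted p = 0.00332) and -1.63 ± 0.16 in line 2 (edgeR adjusted p = 0.00172). The line 1 call was lost without the SMARTer control library. Its more abundant paralog CACNA2D1 had 12.9 and 5.64 RPKM in line 1, 12.97 and 12.8 in line 2, 15.5 in the ARID1A+/- library, against 9.97 and 9.03 in control, and did not pass (+0.15 ± 0.23 over both lines, edgeR adjusted p = 0.713).

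Of the 4 cytoplasmic beta subunit genes, CACNB1 rose in line 2 (+0.58 ± 0.15, edgeR adjusted p = 0.0476), and CACNB2, CACNB3 and CACNB4 passed in neither line. Of the 4 gamma subunit genes, CACNG4 had 18.8 and 26.8 RPKM in line 1, 14.7 and 21.8 in line 2, 15.1 in the ARID1A+/- library, against 20.01 and 30.3 in control, and fell in line 2 by 0.50 ± 0.11 (edgeR adjusted p = 0.0319). CACNG2, the stargazin gene, had 0.319 and 1.02 RPKM in line 1, 0.987 and 2.41 in line 2, 0 in the ARID1A+/- library, against 0.398 and 0.588 in control, and rose in line 2 by 1.66 ± 0.32 (edgeR adjusted p = 0.021). These 3 line 2 calls were lost without either line 2 library or without the SMARTer control library, and those of CACNB1 and CACNG4 also without the KAPA control library. CACNG7 and CACNG8, neighbours on chromosome 19 whose proteins are also AMPA receptor auxiliaries, passed in neither line.

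Of the 42 tested potassium channel genes, 3 rose and 10 fell over both lines, beside 4.64% and 9.57% of all tested genes. Among the pore subunits of the classical voltage-gated families, KCNB2, a delayed rectifier, had 0.482 and 0.303 RPKM in line 1, 0.676 and 0.500 in line 2, 1.44 in the ARID1A+/- library, against 1.90 and 3.85 in control. All null libraries were below both control libraries, and the ARID1A+/- library was between them. The log2 change was -2.88 ± 0.46 in line 1 (edgeR adjusted p = 0.0104) and -2.33 ± 0.44 in line 2 (edgeR adjusted p = 0.019). Both calls were lost without the SMARTer control library, and that of line 2 also without the SMARTer library of line 2. KCNC1, KCNC4, KCND1 and KCND2 passed in neither line.

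KCNQ3, a subunit of the M-current that restrains repetitive firing, had 1.12 and 0.700 RPKM in line 1, 1.61 and 1.22 in line 2, 2.33 in the ARID1A+/- library, against 3.77 and 3.41 in control, with all 4 null libraries below both control libraries. It fell by 2.01 ± 0.18 on the log2 scale in line 1 (edgeR adjusted p = 0.00137) and by 1.40 ± 0.17 in line 2 (edgeR adjusted p = 0.00415), where the call was lost without the SMARTer control library. KCNQ5 was at +0.18 ± 0.12 over both lines and did not pass (edgeR adjusted p = 0.386).

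Of the KCNH genes, KCNH1 (the EAG channel, often expressed in tumours) had 9.64 and 10.2 RPKM in line 1, 4.24 and 7.72 in line 2, 7.22 in the ARID1A+/- library, against 4.18 and 5.70 in control. In each kit line 1 was the highest. It rose by 1.04 ± 0.18 in line 1 (edgeR adjusted p = 0.0132) and was at +0.20 ± 0.17 in line 2, and its calls in line 1 and over both lines were lost without either control library, that over both lines also without the SMARTer library of line 2. KCNH2 had 23.6 and 27.4 RPKM in line 1, 8.37 and 13.7 in line 2, 19.8 in the ARID1A+/- library, against 15.9 and 20.6 in control. Line 1 was above and line 2 below the control in each kit, and the change in line 2 was -0.79 ± 0.13 (edgeR adjusted p = 0.0135), lost without either control library or the KAPA library of line 2. KCNH4, KCNH7 and KCNH8 passed in neither line. KCNH5 was just under the filter of the test, with 2 and 0 counts in line 1, 91 and 111 in line 2, 153 in the ARID1A+/- library, against 56 and 82 in control. Line 1 held 2 counts of KCNH5 in all against 138 in control, which is 74.2-fold lower (95% exact binomial interval 20.2 to 619, for counting error only).

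**Figure D3:**
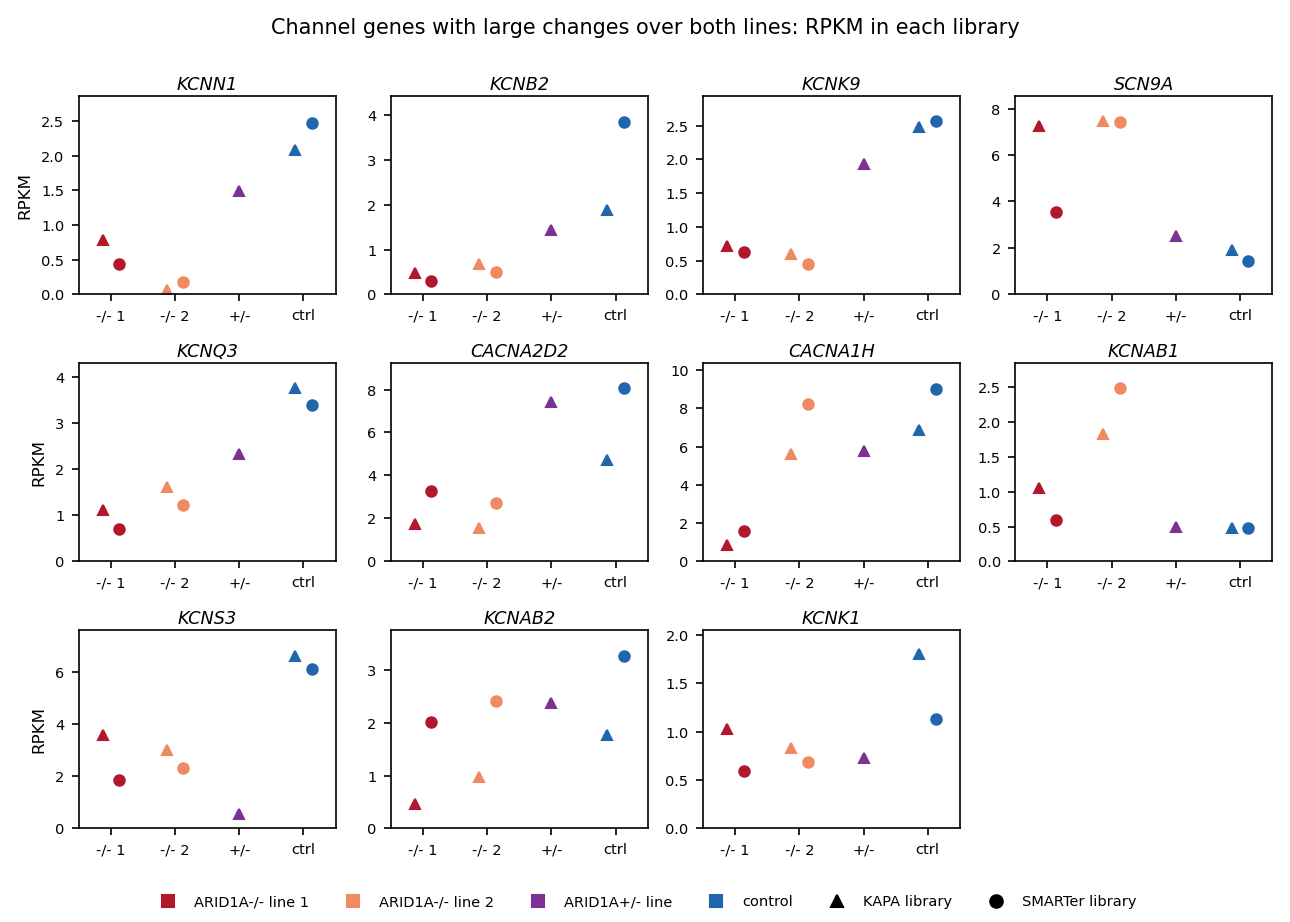
RPKM (y axis, from 0) in each library of 11 described channel genes with large changes over both ARID1A-/- lines among those called with 1 direction in 4 of 4 within-kit pairs; colours are the groups, triangles KAPA and circles SMARTer libraries. SCN9A and KCNAB1 lie above the control of the same kit in all 4 ARID1A-/- libraries and the other 9 below it.

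Modifier subunits form no channel alone. KCNS3, which modifies KCNB channels, had 3.60 and 1.84 RPKM in line 1, 3.02 and 2.31 in line 2, 0.550 in the ARID1A+/- library, against 6.61 and 6.11 in control. It was below both control libraries in all null libraries and lowest in the ARID1A+/- library. The log2 change was -1.29 ± 0.24 in line 1 (edgeR adjusted p = 0.0195) and -1.32 ± 0.24 in line 2 (edgeR adjusted p = 0.0177). The SMARTer control library was needed for these calls and for that over both lines; the call in line 1 also needed the KAPA control library, and that in line 2 both line 2 libraries. KCNG3 fell in line 1 (-1.40 ± 0.30, edgeR adjusted p = 0.0278), a call lost without either control library or the SMARTer library of line 1. KCNG1 and KCNF1 passed in neither line, KCNG1 at +0.14 ± 0.23 over both (edgeR adjusted p = 0.727).

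Accessory subunit genes moved in opposite directions. KCNAB1, a cytoplasmic beta subunit of KCNA channels, had 1.05 and 0.595 RPKM in line 1, 1.83 and 2.49 in line 2, 0.490 in the ARID1A+/- library, against 0.474 and 0.476 in control. All null libraries were above the controls, line 2 most, and the log2 difference was +2.15 ± 0.32 in line 2 (edgeR adjusted p = 0.00856) and +0.77 ± 0.32 in line 1 (edgeR adjusted p = 0.173). KCNAB2, of the same family, had 0.469 and 2.02 RPKM in line 1, 0.975 and 2.40 in line 2, 2.37 in the ARID1A+/- library, against 1.78 and 3.27 in control, and fell by 0.97 ± 0.25 over both lines (edgeR adjusted p = 0.0481). KCNAB3 had 1.21 and 2.28 RPKM in line 1, 5.03 and 8.08 in line 2, 1.66 in the ARID1A+/- library, against 3.26 and 4.99 in control, and fell in line 1 by 1.26 ± 0.18 (edgeR adjusted p = 0.00714). The calls of KCNAB1 and KCNAB2 over both lines and that of KCNAB3 in line 1 were each lost without either control library, as was that of KCNAB1 in line 2, and KCNAB2 lost its call also without either line 2 library. KCNMB4 had 4.76 and 3.98 RPKM in line 1, 19.1 and 15.4 in line 2, 13.5 in the ARID1A+/- library, against 15.7 and 14.5 in control, with both line 1 libraries far below every other library. Its log2 difference was -1.79 ± 0.13 in line 1 (edgeR adjusted p = 0.000708) and +0.14 ± 0.12 in line 2 (edgeR adjusted p = 0.486). KCNE2, KCNIP2, KCNIP4 and KCNMB3 passed in neither line.

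Among calcium- and sodium-activated channels, KCNN1 showed the largest fall over both lines of the 62 tested channel genes. This gene encodes a small-conductance channel that contributes to the afterhyperpolarisation of neurons. KCNN1 had 0.787 and 0.437 RPKM in line 1, 0.0638 and 0.181 in line 2, 1.49 in the ARID1A+/- library, against 2.08 and 2.48 in control, on 68 and 49 counts in line 1, 5 and 20 in line 2, 133 in the ARID1A+/- library, against 138 and 293 in control. Each null library was below both control libraries, and line 2 was the lowest. The log2 change was -1.90 ± 0.42 in line 1 (edgeR adjusted p = 0.0333) and -4.19 ± 0.50 in line 2 (edgeR adjusted p = 0.00344). Both calls were lost without the SMARTer control library, and that of line 1 also without the KAPA control library or the SMARTer library of line 1. KCNN2, KCNMA1, the pore gene of the large-conductance channel, and KCNT2 passed in neither line.

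Of the 4 inward rectifier genes, KCNJ11, the pore of the ATP-sensitive channel of pancreatic beta cells and neurons, had 0.668 and 0.345 RPKM in line 1, 1.77 and 1.97 in line 2, 1.28 in the ARID1A+/- library, against 1.87 and 1.93 in control. It fell by 1.94 ± 0.32 in line 1 (edgeR adjusted p = 0.0122), a call lost without either control library, and was at -0.05 ± 0.30 in line 2. KCNJ8, the pore gene of its vascular counterpart, had 5.61 and 3.82 RPKM in line 1, 16.6 and 9.95 in line 2, 0.0127 in the ARID1A+/- library, against 7.84 and 3.86 in control. In each kit line 2 was the highest, at +1.18 ± 0.18 against control (edgeR adjusted p = 0.0084), a call lost without the SMARTer control library or the KAPA library of line 2. KCNJ9 and KCNJ14 passed in neither line. ABCC8 and ABCC9, which encode the sulfonylurea receptors that complete these channels, were looked up after their partners' values were seen. ABCC8 had 0.885 and 0.709 RPKM in line 1, 1.39 and 2.27 in line 2, 0.606 in the ARID1A+/- library, against 0.740 and 1.80 in control and passed in neither line, and ABCC9 was at most 0.369 RPKM in any library.

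The tandem-pore leak channels set the resting potential. KCNK9, an acid-sensitive leak channel, had 0.718 and 0.627 RPKM in line 1, 0.596 and 0.444 in line 2, 1.92 in the ARID1A+/- library, against 2.48 and 2.56 in control. All 4 null libraries were below both controls, with a log2 change of -1.91 ± 0.26 in line 1 (edgeR adjusted p = 0.006) and -2.33 ± 0.26 in line 2 (edgeR adjusted p = 0.00301). The call over both lines and that in line 1 were lost without the SMARTer control library. KCNK1, a weak inward-rectifying leak channel, was lower over both lines at -0.91 ± 0.22 (edgeR adjusted p = 0.0396) and passed in neither line by itself; its call was lost on leaving out any one library other than the KAPA library of line 1. KCNK15 fell in line 1 (-1.10 ± 0.22, edgeR adjusted p = 0.0226), a call lost without either control library or the SMARTer library of line 1. KCNK3, another acid-sensitive leak channel, was at -0.97 ± 0.26 and missed the threshold (edgeR adjusted p = 0.0555), and KCNK2 passed in neither line.

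Between the null lines, 7 channel genes were higher in line 1 and 11 higher in line 2 of the 62 (edgeR, adjusted p under 0.05), beside 5.71% and 7.10% of all tested genes. The 5 largest on the side of line 1 were SCN1A, KCNN1, KCNJ9, KCNH2 and SCN3A, and large differences on the side of line 2 were those of CACNA1H, KCNMB4, KCNJ11 and KCNAB3. The log2 difference, line 1 minus line 2, was -1.93 ± 0.13 for KCNMB4 (edgeR adjusted p = 0.000711) and -1.89 ± 0.18 for KCNAB3 (edgeR adjusted p = 0.00211). It was -1.89 ± 0.32 for KCNJ11 (edgeR adjusted p = 0.0136) and +1.29 ± 0.14 for KCNH2 (edgeR adjusted p = 0.00283). KCNJ9, a subunit of G protein-gated channels, had 1.70 and 1.72 RPKM in line 1, 0.422 and 0.990 in line 2, 1.06 in the ARID1A+/- library, against 0.652 and 1.41 in control, a difference between the lines of +1.44 ± 0.35 (edgeR adjusted p = 0.0424). For KCNH2 and SCN1A the control lay between the lines. For CACNA1H, KCNMB4 and KCNJ11 line 1 stood apart, and line 2 did not pass the test against control. The calls of CACNA1H, KCNAB3, KCNH2, KCNJ8, KCNMB4 and SCN1A held whichever library was left out. KCNJ11 lost its call without the SMARTer library of line 2, SCN3A without either line 2 library, and KCNN1 without the KAPA library of line 2 or either control library. KCNJ9 kept its call only without the SMARTer library of line 1. COL1A1 differed between the same lines, with 171 and 156 RPKM in line 1 and 19.9 and 30.3 in line 2, and its part was not tested.

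**Figure D4:**
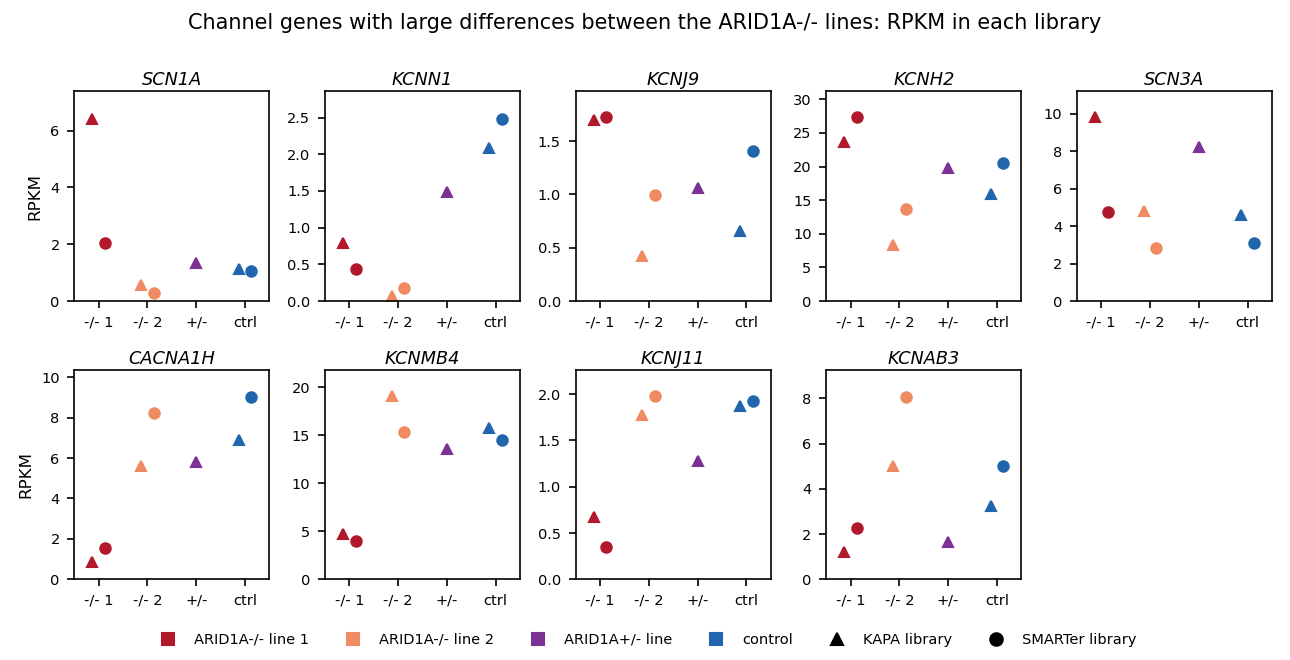
RPKM (y axis, from 0) in each library of 9 described channel genes with large called differences between the ARID1A-/- lines (upper row 5 higher in line 1, lower row 4 higher in line 2); colours are the groups, triangles KAPA and circles SMARTer libraries. In the upper row SCN1A is at 6.40 and 2.04 RPKM in line 1 and at 0.568 and 0.280 in line 2; in the lower row KCNMB4 is at 4.76 and 3.98 in line 1 and at 19.1 and 15.4 in line 2.

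In the ARID1A+/- library, set against the control library of the same kit, 3 of the 62 described genes were at least 2-fold higher and 10 at least 2-fold lower on RPKM + 0.1, beside 3.85% and 5.27% of 14722 entries. With 1 library on each side there is no test. KCNG1 had 80.8 RPKM in the ARID1A+/- library and 25.7 in the KAPA control, although the SMARTer control library had 48.4. CACNG7 had 10.2 and 3.97, and CACNG8 1.46 and 0.598, in the ARID1A+/- and the KAPA control library; the SMARTer control library had 12.03 and 1.13. On the lower side, KCNJ8 held 1 count in the ARID1A+/- library and 458 in the KAPA control, a ratio of 619-fold lower (95% exact binomial interval 111 to 24497, for counting error only). All 6 other libraries had 3.82 RPKM of KCNJ8 or more. KCNK2, a mechanically and lipid-gated leak channel, held 21 counts against 238 (15.3-fold lower, interval 9.79 to 25.2) and KCNS3 46 against 409 (12.01-fold lower, 8.84 to 16.7). SCN3B held 75 counts against 378 (6.81-fold lower, 5.30 to 8.85), and CACNG2 held 0 against 44, a bound of at least 19.8-fold lower when 3 counts are taken as the floor, while its exact binomial interval begins at 15.5-fold. KCNC4, KCNE2, KCNH7 and KCNK1 were also at least 2-fold lower. KCNJ8, KCNK2, KCNS3, SCN3B and CACNG2 were each lower in the ARID1A+/- library than in any of the 6 other libraries, null lines included.

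**Figure D5:**
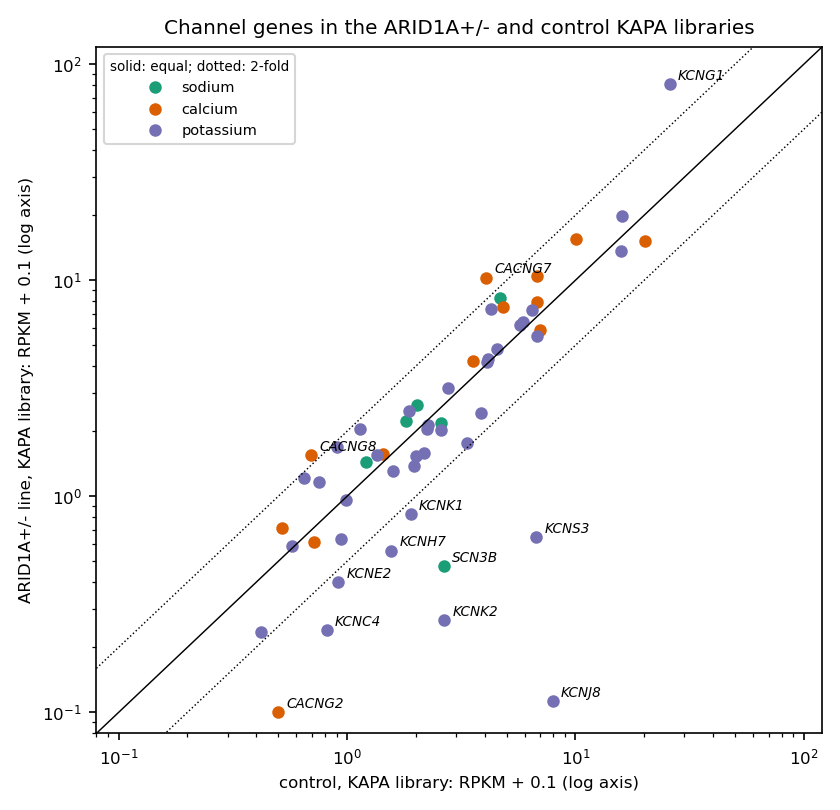
RPKM + 0.1 of 57 described channel genes in the ARID1A+/- library (y axis, log) against the KAPA control library (x axis, log); the solid line is equality and the dotted lines 2-fold. Most points lie between the dotted lines (45 genes), KCNG1, CACNG7 and CACNG8 above them and KCNJ8, KCNK2, KCNS3, SCN3B and 5 others below.

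Channel genes differed between the kits too: KAPA libraries were higher in 4 and lower in 17 of the 62 (edgeR, 5.30% and 7.99% of all tested genes). The KAPA libraries are the repeats, so kit and repeat cannot be told apart. KCNK2, KCNJ8, SCN2A and SCN3A were higher in KAPA libraries. KCNK2 had 2.86 RPKM in the KAPA and 1.20 in the SMARTer library of line 1, 4.33 and 2.04 in those of line 2, and 2.55 and 1.21 in those of control, a log2 difference of +0.97 ± 0.16 (edgeR adjusted p = 0.0207). KCNAB2 was lower in KAPA libraries (-1.57 ± 0.25, edgeR adjusted p = 0.0196), and 8 of 13 calcium channel genes were lower in KAPA libraries. Without either control library the kit calls were lost by edgeR, those of all other tested genes included. Each group holds both kits and the model carries a kit term.

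The 72 other channel genes were low. No count was found in any library for 10 of them, among them KCNA1, KCNA5 and CACNG3, and 27 had 10 counts or fewer over all 7 libraries. KCNA channels, the classical low-threshold channels of axons, were thus all below the filter. The genes that follow were chosen after their values were seen. KCNJ2, the strong inward rectifier of muscle and neurons, had 4 and 11 counts in line 1, 6 and 14 in line 2, 116 in the ARID1A+/- library, against 148 and 276 in control. KCNS2, another modifier subunit, had 3 and 9 counts in line 1, 3 and 15 in line 2, 60 in the ARID1A+/- library, against 29 and 106 in control. KCNA4, an A-type channel gene, had 7 and 16 counts in line 1, 15 and 28 in line 2, 18 in the ARID1A+/- library, against 65 and 92 in control. In all of these the null libraries were well below the controls. KCNJ3, a G protein-gated partner of KCNJ9, had 77 and 103 counts in line 1, 7 and 15 in line 2, 53 in the ARID1A+/- library, against 40 and 115 in control, and was lowest in line 2.

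Genes that work with these channels were followed in lists. Of 34 channel partners outside the name patterns, 21 were tested, and 0 rose and 3 fell over both lines (FGF13, HCN2 and TPCN1). Of all tested genes 4.64% rose and 9.57% fell. Among the partners 0 rose and 4 fell in line 1 (4.75% and 8.27% of all tested genes). In line 2, 2 rose and 1 fell (5.47% and 8.52%). FGF13, an intracellular protein that binds sodium channels, had 8.62 and 5.28 RPKM in line 1, 0.0799 and 0.0425 in line 2, 26.7 in the ARID1A+/- library, against 12.5 and 19.5 in control. Both line 2 libraries were almost without it, at -8.12 ± 0.49 against control (edgeR adjusted p = 0.000405), and line 1 was at -1.22 ± 0.31 (edgeR adjusted p = 0.0494). HCN2, a pacemaker channel, had 4.43 and 3.29 RPKM in line 1, 3.93 and 5.10 in line 2, 9.57 in the ARID1A+/- library, against 6.60 and 8.43 in control, a change of -0.86 ± 0.19 over both lines (edgeR adjusted p = 0.0277).

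Of 21 ion pumps and exchangers, 13 were tested, and 0 rose and 1 fell over both lines (4.64% and 9.57% of all tested genes). That gene was ATP2B3, a calcium pump of the plasma membrane in neurons, with 0.121 and 0.418 RPKM in line 1, 0 and 0.0726 in line 2, 3.90 in the ARID1A+/- library, against 1.85 and 5.58 in control (-5.31 ± 0.34 over both lines, edgeR adjusted p = 0.000314). In line 2, 1 rose and 3 fell (5.47% and 8.52% of all tested genes), and in line 1 0 rose and 1 fell (4.75% and 8.27%). REST silences many neuronal genes, channel genes included, in cells that are not neurons. REST had 1.31 and 1.36 RPKM in line 1, 2.32 and 1.06 in line 2, 4.17 in the ARID1A+/- library, against 1.68 and 0.902 in control, and did not pass (+0.25 ± 0.27 over both lines, edgeR adjusted p = 0.599). Of REST and 7 corepressor genes, all tested, RCOR2 fell (-0.67 ± 0.13, edgeR adjusted p = 0.0206) and 0 rose over both lines, and in line 1 RCOR3 also passed upward.

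By position, the symbols of all 134 genes matched the RefSeq table (GRCh38.p14), used for chromosomes and order only. The described sodium channel genes SCN3A and SCN2A, and SCN1A and SCN9A, form neighbouring pairs on chromosome 2 among coding genes, in the order SCN3A, SCN2A, SCN1A, SCN9A with other genes between the pairs. SCN1A and SCN9A, side by side, moved in the same direction in line 1 and in opposite directions in line 2. The 3 described genes on chromosome 8 were KCNB2, KCNK9 and KCNQ3, and all 3 fell in both lines. Over the 412 tested genes placed on that chromosome by symbol, the median log2 change over both lines was 0.02 and 9.22% were lower. Over all tested genes these were 0.02 and 9.57%. Of all 14710 tested genes, 12034 matched the RefSeq table, so the chromosome may hold further tested genes. CACNG7 and CACNG8, both higher in the ARID1A+/- library than in the KAPA control, are adjacent on chromosome 19.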

How the data were processed

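RNA of 7 libraries of the human NGP neuroblastoma cell line and its ARID1A mutant derivatives was sequenced as single-end reads of 75 bp, per the labels. Reads were aligned to hg19 with HISAT2 2.1.0, per the submitters' processing notes; how reads were counted (program, annotation, strand) is not given in the sources used, so genes that overlap others or have an antisense partner are uncertain. The authors deposited, for each library, whole-number counts and RPKM values of every entry, per the file headers. An entry named unknown took 0.000123% to 0.000251% of the counts and was left out of library sizes and tests.

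From the deposited counts, edgeR 4.0.16 (R 4.3.3; quasi-likelihood test, TMM scaling of the full library totals) was fitted to 14710 entries whose RPKM averaged 0.5 or more over both null lines and control (6 libraries). The model held the 3 groups and the kit, with 2 residual degrees of freedom per gene, and Benjamini-Hochberg adjustment ran over all fitted entries (threshold 0.05). Standard errors were taken as the fold change (log2) over the root of the F statistic. The ARID1A+/- line has 1 library, so its values carry no test. For its counts of genes at least 2-fold apart, deposited RPKM + 0.1 was used. Folds printed for single genes beside their counts are ratios of counts scaled to library totals, without an added value. They carry a 95% exact binomial interval that covers counting error only. Alternatives were no kit term, DESeq2 1.42.0, limma 3.58.1 on log2(RPKM + 1) and log2(RPKM + 0.1), RLE and upper-quartile scaling, no filter, a mean RPKM of at least 1, the ARID1A+/- library as a group, and each library left out.

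The kit pairs libraries across groups: differences between kits correlated at 0.51 between line 1 and control, 0.63 between line 2 and control and 0.45 between the lines (across genes, which are not independent replicates). The SMARTer and the KAPA library of a group differed well beyond sampling noise (chi-square of 145 to 190 per gene), a figure that includes the difference between kits.

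Genes named in full were the 12 largest changes over both lines past the threshold and on the same side in 4 of 4 within-kit differences, the 5 largest in each direction between the lines, the 2 most abundant of each ion family and the 3 furthest in each direction in the ARID1A+/- library. Others are named to complete a group. Some genes that this rule or the lists pick are not reported here by name, while counts and sums cover all genes. The channel genes, this rule and the lists of partners, pumps, REST corepressors and cell type markers were chosen with earlier results of these data known.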

Additional observations from a re-analysis of the deposited data

Results flagged for a closer look

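For 18 channel genes the effect differed between the ARID1A-/- lines, which have the control in common, by the direct test of line 1 minus line 2 (edgeR, adjusted p under 0.05). Values are log2 differences, given for 16 of them. Line 1 was higher for SCN1A (3.26), KCNN1 (2.28), KCNJ9 (1.44), KCNH2 (1.29), SCN3A (0.94) and KCNH1 (0.83). Line 1 was lower for CACNA1H (-2.47), KCNMB4 (-1.93), KCNJ11 (-1.89), KCNAB3 (-1.89), KCNJ8 (-1.43), KCNAB1 (-1.38), CACNG2 (-1.34), KCNG3 (-1.19), KCNK15 (-1.03) and CACNA1B (-0.93). By the fitted values KCNN1, CACNA1H, CACNA1B and KCNJ11, among others, lay below control in both lines, and KCNAB1 and KCNH1 above it. For these the values differed in size and not in sign, although of these genes only KCNN1 passed against control in both lines. Of the 6 fits that left out 1 library, KCNG3 lost its call in 6, KCNK15 and KCNJ9 in 5 each, KCNAB1 in 4, KCNH1, KCNN1 and CACNG2 in 3 each, SCN3A in 2, and CACNA1B and KCNJ11 in 1 each. No group had 4 or more libraries, so no library was tested for lying far from its group.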

How the results depend on the processing

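The fit without the kit as a replicate block called 7 channel genes over both lines, 7 in line 1, 7 in line 2 and 5 between the lines, against 18, 21, 17 and 18 with it. Over all tested genes it called 592, 475, 519 and 404, against 2090, 1916, 2059 and 1885. Without a filter on low values, 38 were called over both lines, 35 in line 1 and 35 in line 2, of 123 channel genes fitted. Over all fitted entries that fit called 3144, 2856 and 3080. Leaving out 1 library at a time gave 4 to 30 over both lines, 5 to 28 in line 1, 5 to 27 in line 2, 11 to 21 between the lines and 0 to 28 between the kits; the 0 came without either control library by edgeR, where 23 had an unadjusted p under 0.05. Over all tested genes the calls also fell without either control library, and those between the kits were then lost altogether. Other scalings, DESeq2, limma, the higher filter and the added ARID1A+/- group kept these 5 counts of channel genes within 1.5 times. Of 95 calls on single genes, DESeq2 lost 2, each limma fit 26, the fit without the SMARTer control library 70 and that without the KAPA control library 54. No alternative reversed a called gene. Limma shifted the median of all genes between the kits to 0.12 and 0.15 on the log2 scale, against -0.01. With 2 libraries a group, a gene that missed the threshold is not shown to be equal, and genes under 0.5 RPKM rest on few counts.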
